A study of Rattus norvegicus with 12 samples.

Results

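The cytosolic ribosomal protein genes, which encode the proteins of the small and large ribosomal particles, were examined across whole rat lungs. Members were the gene rows whose symbol names a small-particle (Rps) or large-particle (Rpl) protein by number, with or without a closing a or x, together with Rplp0, Rplp1, Rplp2 and Rpsa, provided that they held at least 10 read counts in at least 4 of the 12 libraries. Of 80 rows with such a symbol, 74 met the count rule, out of 32883 genes in the deposited table. They comprised 30 rows of the small particle, 41 of the large particle and 3 of the P stalk, and carried 69 different symbols, because Rpl21 stood on 3 rows and Rpl32, Rpl7a and Rps27a on 2 rows each.

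RNA from whole lung of WT rats was sequenced in 3 groups of 4 libraries. Control rats were labelled as controls with no further agent. The other groups received monocrotaline (MCT), a plant toxin that damages lung vessels and is used as a rat model of pulmonary hypertension, with either the vehicle of ferrostatin-1 (MCT-vehicle) or ferrostatin-1 itself (MCT-Fer-1), an inhibitor of the lipid peroxidation that drives ferroptosis. All groups were labelled with a time of 25 days, and vehicle or ferrostatin-1 was dosed for 10 days. No such dosing is stated for Control, so monocrotaline and vehicle dosing cannot be told apart against Control. The sources used here do not give strain, sex or age. Nor do the labels tie each library to its own animal, and the p-values below then reflect only how much these samples vary, which may be technical.

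Ribosomal proteins fold onto ribosomal RNA in the nucleolus and build the particles that decode messenger RNA and form peptide bonds. In mammals many of their messenger RNAs begin with a terminal oligopyrimidine (TOP) run, a C at the start followed by further C or T bases, through which mTORC1 and LARP1 control their translation. That control acts on translation and need not be seen in RNA levels, which are what was measured here. When ribosome assembly is disturbed, free Rpl5 and Rpl11 can bind Mdm2 and stabilise p53.

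The TOP run was looked for in RefSeq promoter sequences of the GRCr8 assembly, each covering 250 bases before and 50 bases from an annotated start. Of 69 member symbols, 55 were matched, with 56 promoters. The run, taken as a C at the start and at least 4 further C or T bases on the gene's own strand, stood exactly at the start in 19 of 56 member promoters (33.9%). It stood there in 881 of all 33469 promoters (2.63%) and in 2 of 62 promoters of mitochondrial ribosomal proteins (3.23%). Within 5 bases of the start it was found in 34 member promoters (60.7%) and in 17% of all promoters. For mitochondrial ribosomal proteins this was 15 of 62 promoters (24.2%). The letters TATA, which read the same on both strands, lay 40 to 16 bases upstream in 10 member promoters (17.9%) against 5.15% of all promoters. A match describes the letters at an annotated start and is not a mapped site.

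Of the sequences below, those of Rplp0, Rplp1, Rps14, Rps27, Rpl17 and Rps18 show the form of the run, and those of Rpl36 and Rps9, which were called under some alternatives only, show starts without it. Each is printed 5′ to 3′ from 40 bases before the annotated start to 20 bases from it, 60 bases in all, and capitals mark the TOP run. In GRCr8 they lie at chr12:46718371-46718430 on the minus strand (Rplp0), chr8:71290853-71290912 minus (Rplp1), chr18:56498220-56498279 plus (Rps14), chr2:177964587-177964646 minus (Rps27), chr18:70856236-70856295 plus (Rpl17), chr20:4933705-4933764 plus (Rps18), chr9:1533740-1533799 plus (Rpl36) and chr1:74430418-74430477 minus (Rps9).
Rplp0: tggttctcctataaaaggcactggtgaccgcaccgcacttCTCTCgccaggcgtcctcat
Rplp1: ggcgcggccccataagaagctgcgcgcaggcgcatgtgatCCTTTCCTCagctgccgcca
Rps14: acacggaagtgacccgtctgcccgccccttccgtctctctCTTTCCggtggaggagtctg
Rps27: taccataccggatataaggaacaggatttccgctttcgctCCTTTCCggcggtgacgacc
Rpl17: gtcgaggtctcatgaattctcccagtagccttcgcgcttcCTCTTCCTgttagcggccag
Rps18: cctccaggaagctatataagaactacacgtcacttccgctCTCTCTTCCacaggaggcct
Rpl36: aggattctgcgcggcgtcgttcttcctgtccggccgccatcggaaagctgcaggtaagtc
Rps9: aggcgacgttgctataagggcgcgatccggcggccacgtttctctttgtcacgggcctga
The capital run was 5 bases long in Rplp0, 6 in Rps14, 7 in Rps27, 8 in Rpl17 and 9 in Rplp1 and Rps18. In Rps9 the run does not begin at the annotated start, but one begins within 5 bases of it. Among members not printed, Rpl5, Rpl11, Rps19 and Rpsa also lack the run at the start, and no alternative called them. Rps2 and the 1 promoter matched to the symbol Rpl7a lack it too. In MCT-Fer-1 against Control, Rps2 and the Rpl7a row ENSRNOG00000047737 were each called under 1 alternative. Which Rpl7a row that promoter belongs to was not determined.

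Library totals ran from 11601929 counts (MCT-Fer-1 1) to 70627239 counts (MCT-Fer-1 4). Levels are CPM, a row's counts scaled to a common library total, on library sizes scaled by TMM, edgeR's trimmed mean of M-values. They are not divided by transcript length, so levels are compared between samples and not between genes. The lung label was borne out by its markers: all 10 alveolar type 2 markers, all 7 alveolar type 1 markers and 11 of 12 endothelial markers were tested, with none at 0 in any library, and the type 2 markers, Sftpc among them, summed to 21095 to 38104 CPM. Heart muscle markers, of which 8 of 11 were tested, summed to 429 CPM in MCT-vehicle 2 and 271 CPM in Control 4, against 17.4 to 82.2 CPM in the other libraries.

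The ribosomal protein genes took almost the same share of the lung's counts in the 3 groups. Their summed level was 29019 ± 935 CPM in Control (SD, n = 4; range 27937 to 30211), 29280 ± 1637 CPM in MCT-vehicle (27900 to 31649) and 29508 ± 2414 CPM in MCT-Fer-1 (27396 to 32932). As a share of all counts this was 2.90% ± 0.0986, 2.92% ± 0.188 and 2.95% ± 0.244. The group ranges overlapped, and the means lay closer together than the SD within any group. The small particle summed to 12148 ± 404, 12225 ± 712 and 12378 ± 1019 CPM in Control, MCT-vehicle and MCT-Fer-1, and the large particle to 15230 ± 543, 15312 ± 818 and 15442 ± 1338 CPM. The P stalk, the lateral arm that recruits translation factors, summed to 1640 ± 40.6, 1743 ± 130 and 1687 ± 78.8 CPM. In whole tissue, fewer cells of a type and less RNA per cell cannot be told apart.

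**Figure D1:**
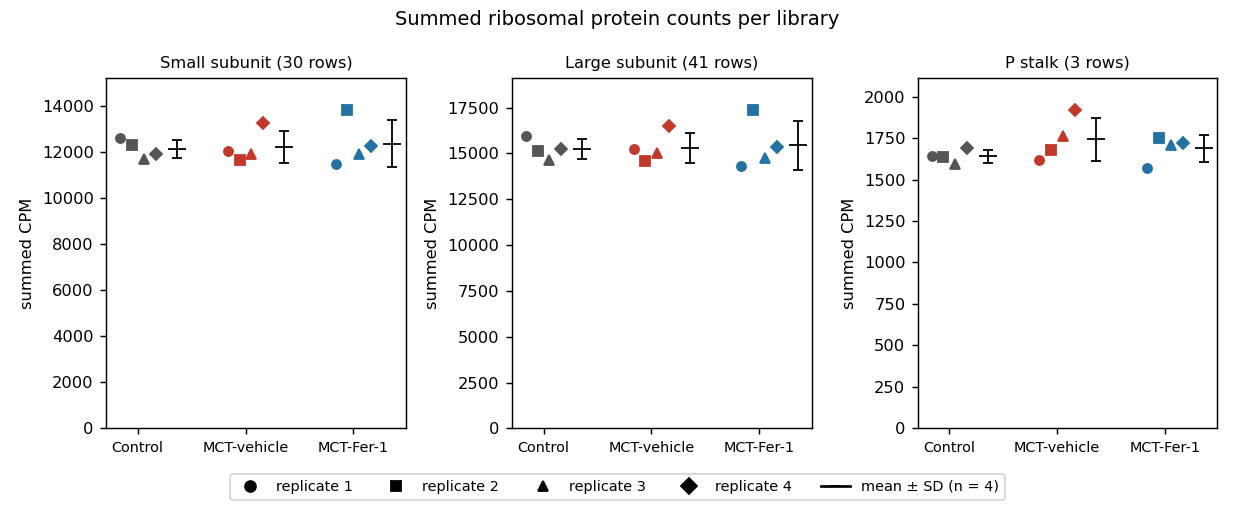
Summed CPM of the small-particle, large-particle and P stalk rows in each library (y axes from 0), by group on the x axis, with marker shapes for the replicate and bars for the mean ± SD of 4 libraries. The groups overlap in each panel, and MCT-Fer-1 2 and MCT-vehicle 4 stand highest for the small and large particles.

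Libraries of 1 group differed from each other across many members at once. MCT-Fer-1 2 held the highest level of 38 of the 74 members and MCT-vehicle 4 of a further 20, while MCT-Fer-1 1 held the lowest level of 23 and Control 3 of 15. MCT-Fer-1 2 was also the library with the highest sum of the B and plasma cell markers (417 CPM, with 254 to 390 CPM elsewhere). It was highest too for other TOP messenger RNAs (15036 CPM), cell cycle genes (663 CPM) and mitochondrially encoded transcripts (42064 CPM). Of the B and plasma cell markers 8 of 10 were tested, none at 0 in any library, and Xbp1 alone averaged 167 to 180 CPM by group. MCT-vehicle 2 had 390 CPM of these markers and a member sum of 27900 CPM. MCT-vehicle 4 had 361 CPM of them and a member sum of 31649.5 CPM. By group these markers summed to 272 to 315 CPM in Control, 289 to 390 CPM in MCT-vehicle and 254 to 417 CPM in MCT-Fer-1. The part of these lists in the members' levels was not tested. MCT-Fer-1 1, with the lowest levels, was the shallowest library, and MCT-Fer-1 4, the deepest, had a member sum of 29319 CPM, inside the range of the others. The part of depth was not tested.

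**Figure D2:**
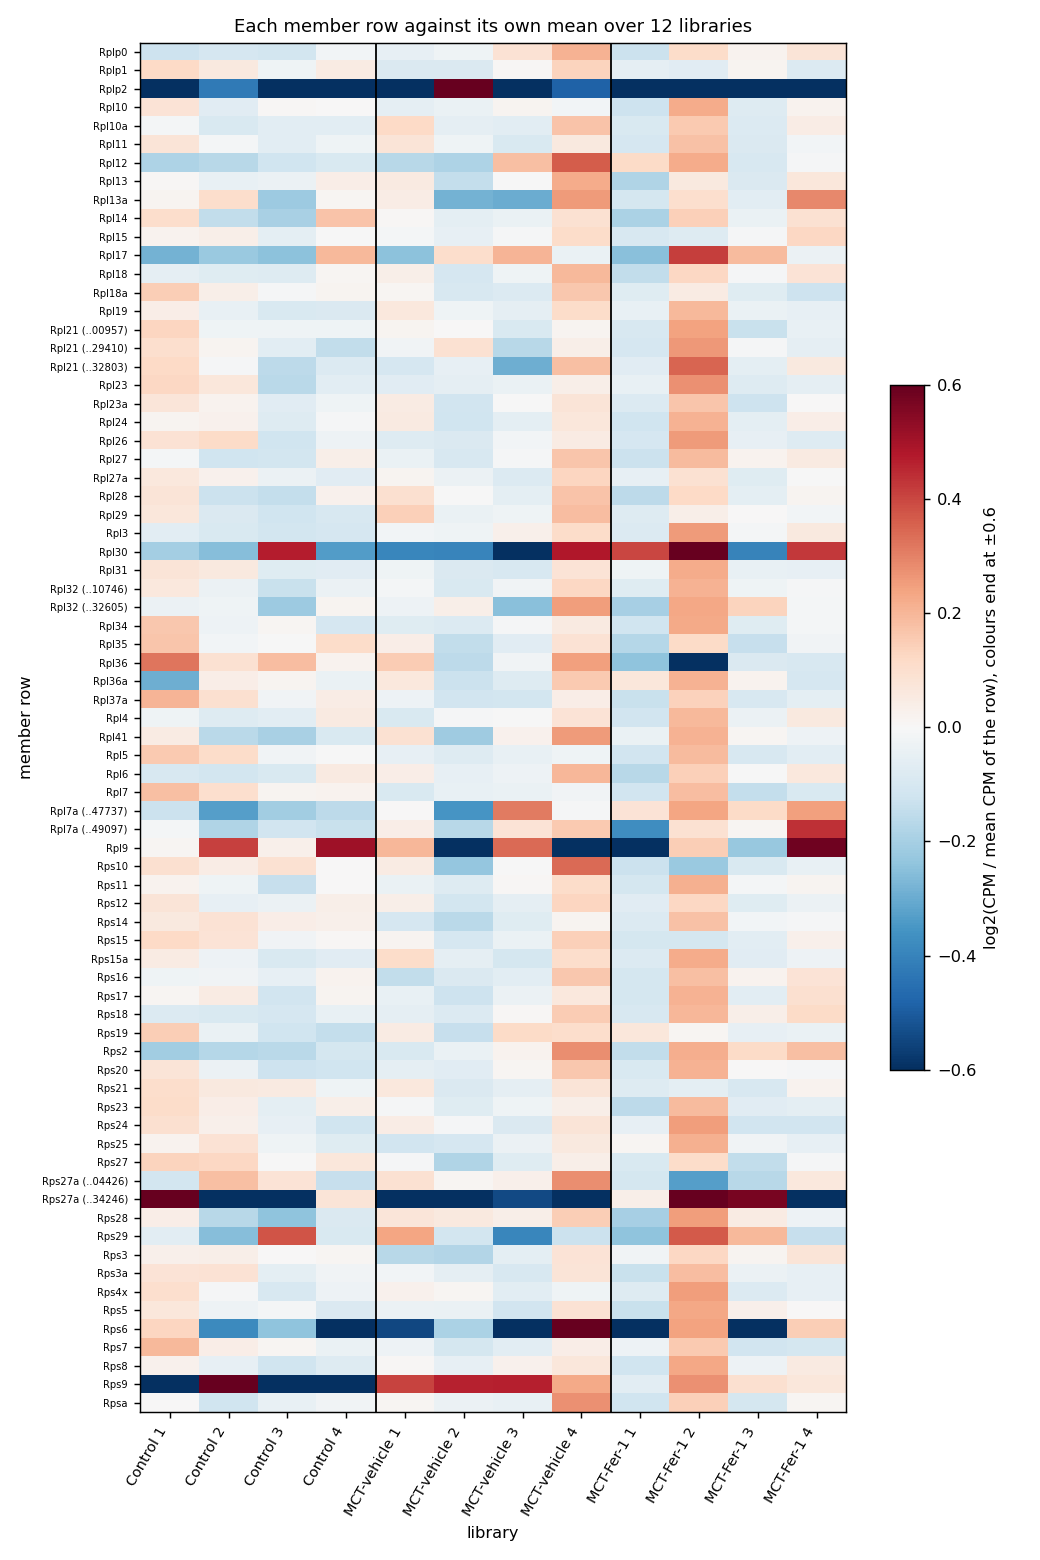
Each of the 74 member rows (y axis) in each of the 12 libraries (x axis), coloured by the log2 ratio of its CPM to its mean over the 12 libraries, with colours ending at ±0.6 and vertical lines between groups. Most rows are pale throughout, MCT-Fer-1 2 is red down most of its column, and Rplp2, Rpl30, Rpl9, Rps27a (ENSRNOG00000034246), Rps6 and Rps9 reach the ends of the scale in 2 or more libraries each.

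Most members varied little among replicates. The within-group SD of log2 CPM had a median of 0.11 over the members and 0.19 over all 15257 genes tested, and it was under 0.15 in 59 of 74 members (79.7%) against 36.3% of all genes. Only 8 members had a mean under 20 CPM, and the comparison with all genes was not matched for level. In 60 members the highest of the 12 libraries lay less than 1.5-fold above the lowest. Rps21, a small-particle protein, had the lowest within-group SD (0.06), with 179 to 196 CPM in Control, 172 to 193 CPM in MCT-vehicle and 171 to 185 CPM in MCT-Fer-1. In 6 members (8.11%, against 13.7% of all genes) the SD exceeded 0.5.

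Against Control, the lungs of MCT-vehicle rats showed no called change in any ribosomal protein gene. By edgeR's quasi-likelihood test with Benjamini-Hochberg adjustment over all genes, 0 of 74 members passed an adjusted p below 0.05, where 18.6% of all genes did (10.3% higher and 8.28% lower). DESeq2 (23.1% of all genes) and limma voom (18.7%) also called 0 members. At an unadjusted p below 0.05 there were 2 members by edgeR (Rplp2 and Rps2), 2 by DESeq2 and 3 by voom, against 32.1% of all genes by edgeR. The members' median log2 fold change was 0.01 (all genes 0.02), with 39 positive and 35 negative values, and their median absolute log2 fold change was 0.07 against 0.21 for all genes. The small-particle rows had 13 positive and 17 negative values, and the large-particle rows 24 and 17.

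These intervals were narrow enough to bound most members. The 95% interval of the fold change lay wholly within 1.5-fold in either direction for 68 of 74 members. Wider intervals belonged to Rps6, Rpl9, Rpl30, Rplp2, Rps9 and Rps27a (ENSRNOG00000034246). For these 6 rows the spread between libraries left a change over 1.5-fold inside the interval.

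Groups that did not overlap between MCT-vehicle and Control were found in 5 members (6.76%), against 21.5% of all genes. The 2 members higher in every MCT-vehicle library (11.5% of all genes were) were Rps2, a protein near the messenger RNA entry channel, and Rpl3, which lies near the peptidyl transferase centre. Rps2 (ENSRNOG00000014179) stood at 395, 404, 406 and 424 CPM in Control, at 427, 443, 462 and 552 CPM in MCT-vehicle, and at 411, 529, 493 and 517 CPM in MCT-Fer-1. All MCT-vehicle values lay above Control by a small margin, and MCT-Fer-1 1 fell inside the Control range. The fitted log2 fold change of Rps2 was 0.21 ± 0.09 (SE; edgeR adjusted p = 0.146) for MCT-vehicle and 0.26 ± 0.09 (edgeR adjusted p = 0.103) for MCT-Fer-1, each against the same Control libraries. Without MCT-Fer-1 1 the latter was 0.33 (edgeR adjusted p = 0.0297), and its adjusted p ran from 0.0297 to 0.240 over 24 alternatives, with 1 call.

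Rpl3 stood at 785, 770, 759 and 765 CPM in Control, 810, 804, 836 and 885 CPM in MCT-vehicle, and 775, 977, 813 and 854 CPM in MCT-Fer-1. Its log2 fold change in MCT-vehicle was 0.12 ± 0.08 (edgeR adjusted p = 0.317). The MCT-vehicle values cleared Control, and in MCT-Fer-1 all but MCT-Fer-1 1 (775 CPM) did. For MCT-Fer-1 against Control the log2 fold change of Rpl3 was 0.15 ± 0.08 (edgeR adjusted p = 0.232).

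The 3 members lower in every MCT-vehicle library (10% of all genes were) were Rps14, Rpl5 and Rpl7. Rps14, a protein of the small particle's platform whose promoter above carries the run, stood at 489, 499, 484 and 480 CPM in Control and at 438, 420, 447 and 475 CPM in MCT-vehicle, a log2 difference of -0.13 ± 0.07 (edgeR adjusted p = 0.196). In MCT-Fer-1 it stood at 444, 531, 465 and 468 CPM, on both sides of Control. Rpl5, which carries 5S RNA into the large particle, stood at 928, 900, 822 and 832 CPM in Control and at 806, 789, 807 and 818 CPM in MCT-vehicle (log2 fold change -0.11 ± 0.08, edgeR adjusted p = 0.348). The nearest values of the groups lay closer together than the values within either group were spread. In MCT-Fer-1 Rpl5 stood at 771, 950, 779 and 799 CPM, with 1 library above all of Control and 3 below it. Rpl7, a large-particle protein, stood at 891 to 997 CPM in Control, 827 to 868 CPM in MCT-vehicle and 798 to 1002 CPM in MCT-Fer-1 (MCT-vehicle log2 fold change -0.13 ± 0.08, edgeR adjusted p = 0.285).

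Rpl11, the partner of Rpl5 on 5S RNA, stood at 440 to 486 CPM in Control, 433 to 486 CPM in MCT-vehicle and 430 to 521 CPM in MCT-Fer-1. Its log2 fold change was 0.01 ± 0.07 (edgeR adjusted p = 0.931) in MCT-vehicle and 0.00 ± 0.07 (edgeR adjusted p = 0.985) in MCT-Fer-1, each against Control. Rps19, a small-particle protein mutated in Diamond-Blackfan anaemia, ranged over 132 to 161, 132 to 157 and 140 to 152 CPM in the 3 groups. Rpsa, also known as the laminin receptor, ranged over 843 to 915, 886 to 1106 and 841 to 1010 CPM. For all 3 genes the groups overlapped and no comparison was called.

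Among the P stalk proteins, Rplp0, the stalk's base, stood at 1038, 1054, 1048 and 1117 CPM in Control, 1093, 1112, 1202 and 1306 CPM in MCT-vehicle, and 1036, 1220, 1149 and 1194 CPM in MCT-Fer-1. The groups overlapped, and the log2 fold change in MCT-vehicle was 0.15 ± 0.08 (edgeR adjusted p = 0.217). Rplp1, which binds the base as a dimer with Rplp2, ranged over 543 to 601, 521 to 607 and 527 to 559 CPM in Control, MCT-vehicle and MCT-Fer-1.

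**Figure D3:**
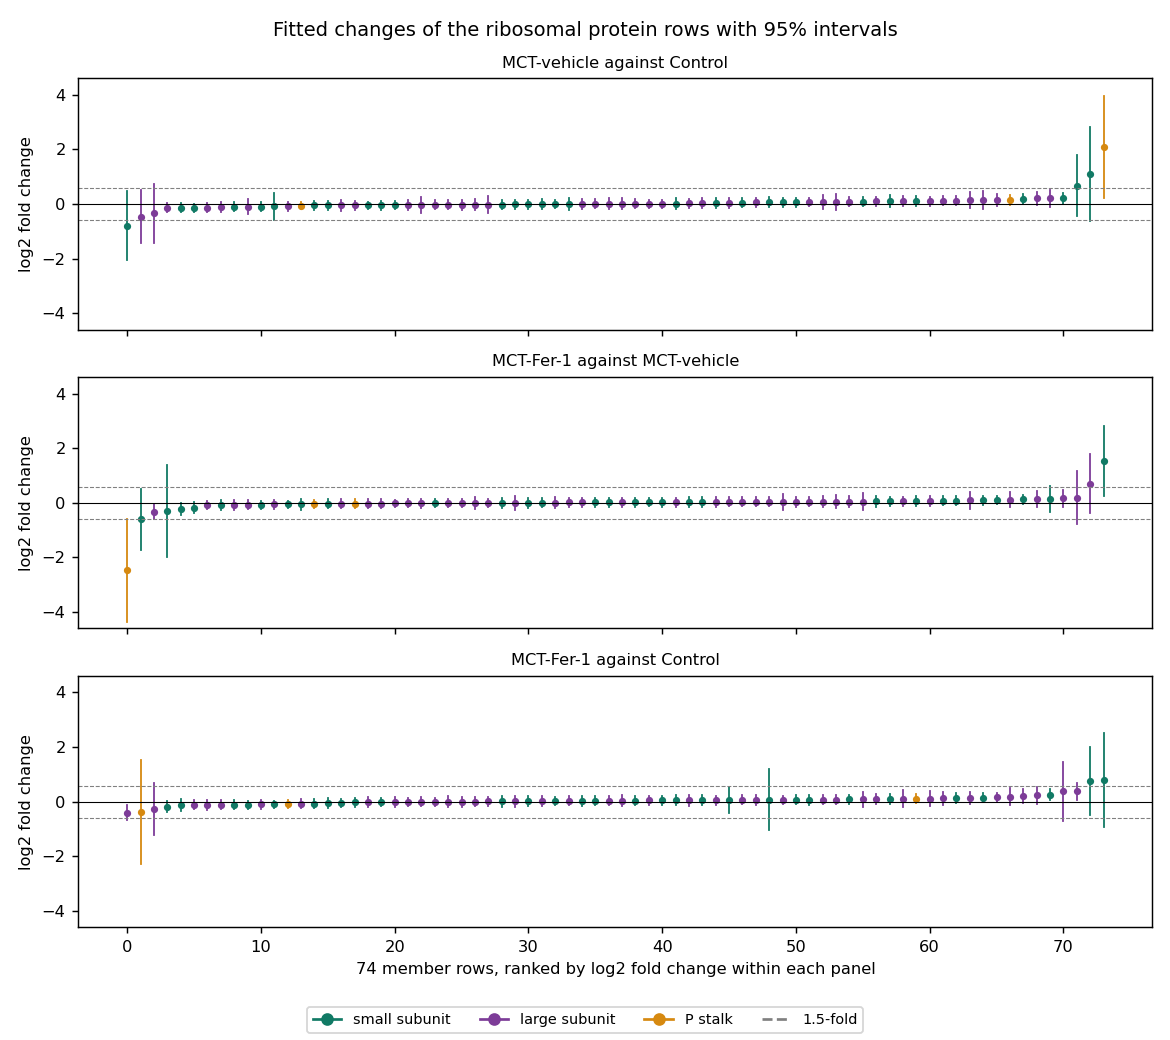
Log2 fold changes (y axes) of the 74 member rows with 95% intervals, ranked on the x axis within each of the 3 comparisons, coloured by particle, with dashed lines at 1.5-fold. Most intervals lie between the dashed lines, and the longest belong to Rplp2, Rps9 and Rps27a (ENSRNOG00000034246), whose levels differed widely between libraries of 1 group.

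Between MCT-Fer-1 and MCT-vehicle no ribosomal protein gene was called either. edgeR called 0 of 74 members and 0% of all genes, DESeq2 (1.6% of all genes) and voom (0%) called 0 members, and an unadjusted p below 0.05 was reached by 4 members by edgeR (12% of all genes), 4 by DESeq2 and 2 by voom. The 4 by edgeR were Rplp2, Rpl36 and both rows of Rps27a. The median log2 fold change was 0.02 (all genes -0.01), with 43 positive and 31 negative values, and the 95% interval lay within 1.5-fold for 66 members. Without MCT-Fer-1 2 the members' median was -0.04 (all genes -0.02). In 0 members did the groups not overlap, against 6.1% of all genes (3.11% higher and 3% lower). Rps3, a small-particle protein at the messenger RNA entry site, had the largest positive change relative to its error after the rows just named, with 602 to 719 CPM in MCT-vehicle and 669 to 740 CPM in MCT-Fer-1 (log2 fold change 0.13 ± 0.07, edgeR adjusted p = 0.498).

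MCT-Fer-1 against Control, which shares its samples with both comparisons above, gave 0 of 74 members by edgeR, where 10.8% of all genes were called (6.67% higher and 4.12% lower). DESeq2 called 1 member (Rpl36; 15.2% of all genes) and voom 2 (Rpl36 and the low Rpl7a row; 15.6% of all genes). Unadjusted p-values below 0.05 were reached by 3 members by edgeR (Rpl36, Rps2 and Rpl7a, ENSRNOG00000047737), against 25.2% of all genes, by 4 by DESeq2 and by 5 by voom. The median log2 fold change was 0.03 (all genes 0.00), with 48 positive and 26 negative values, and the 95% interval lay within 1.5-fold for 66 members. Without MCT-Fer-1 2 the members' median was -0.03 (all genes -0.01). Groups did not overlap in 3 members, against 19.1% of all genes: Rpl7a (ENSRNOG00000047737) was higher (10.6% of all genes were), and Rpl36 and Rps10 were lower (8.54% of all genes were).

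Rpl36 (ENSRNOG00000033473), a large-particle protein, came closest to a call. It stood at 177, 151, 161 and 144 CPM in Control, at 158, 127, 140 and 168 CPM in MCT-vehicle and at 120, 88.9, 133 and 133 CPM in MCT-Fer-1. Every MCT-Fer-1 value lay below every Control value, and MCT-vehicle overlapped both other groups. The lowest of the 12 values was in MCT-Fer-1 2, the library in which most other members were highest. For MCT-Fer-1 against Control the log2 fold change was -0.41 ± 0.13 (95% interval -0.69 to -0.14, edgeR adjusted p = 0.0557), and against MCT-vehicle it was -0.32 ± 0.13 (edgeR adjusted p = 0.352). DESeq2 gave an adjusted p of 0.0191 for the comparison with Control and voom one of 0.0365, and over 24 alternatives the adjusted p ran from 0.0191 to 0.137, with 4 calls. Without MCT-vehicle 2, which is in neither group but shares the estimate of the spread, it was 0.0499.

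Rps10, a small-particle protein, stood at 185, 178, 184 and 173 CPM in Control and at 158, 148, 162 and 167 CPM in MCT-Fer-1, with a fitted log2 change of -0.18 ± 0.10 (edgeR adjusted p = 0.277). In MCT-vehicle it ran from 147 to 219 CPM, on both sides of both groups. The low Rpl7a row (ENSRNOG00000047737) stood at 6.05, 5.26, 5.72 and 5.92 CPM in Control and 6.98, 7.79, 7.15 and 7.83 CPM in MCT-Fer-1, with a fitted log2 change of 0.38 ± 0.15 (edgeR adjusted p = 0.124). The other Rpl7a row (ENSRNOG00000049097) ran from 26.6 to 29.9 CPM in Control and from 23.3 to 40.8 CPM in MCT-Fer-1, so those groups overlapped.

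**Figure D4:**
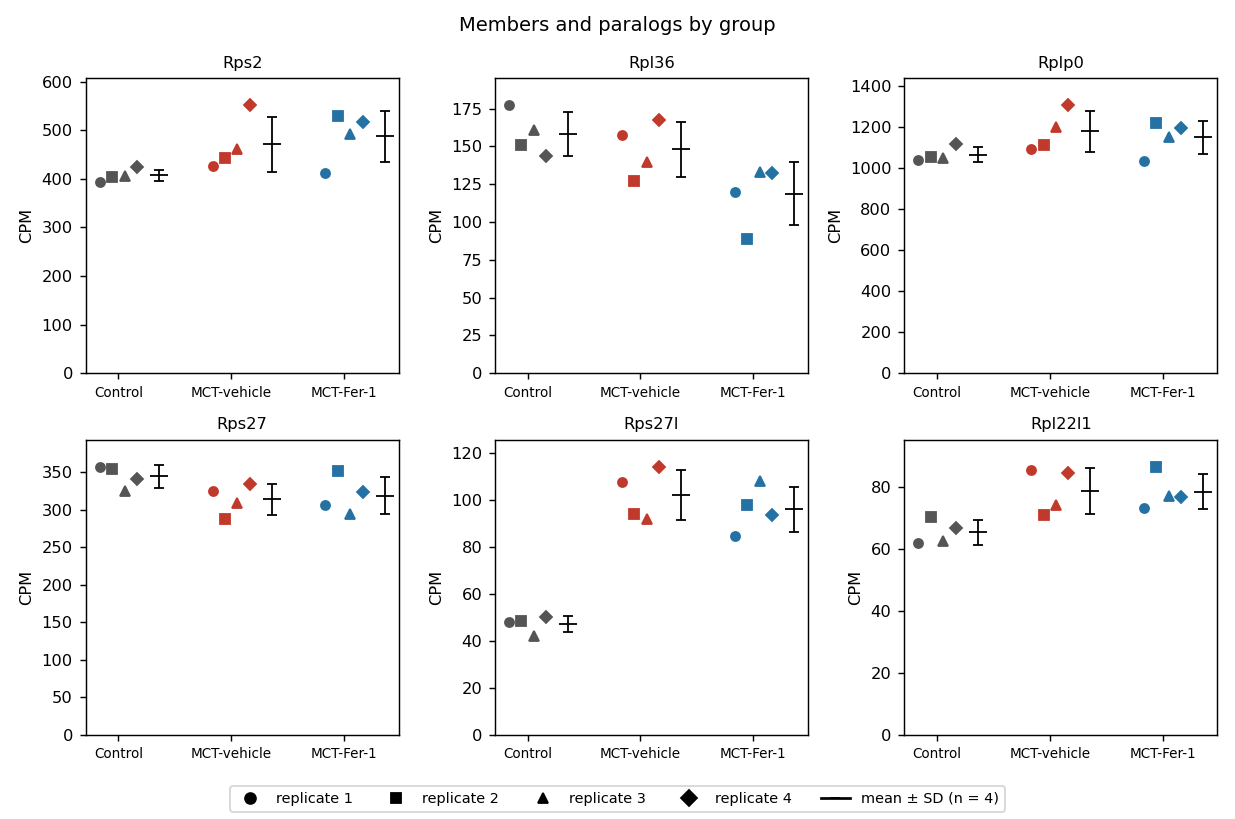
CPM (y axes from 0) of Rps2, Rpl36, Rplp0, Rps27, Rps27l and Rpl22l1 in each library by group (x axis), with marker shapes for the replicate and bars for the mean ± SD of 4 libraries. Rps27l stands at 84.6 CPM or above in all monocrotaline libraries and at 50.1 CPM or below in Control, and the groups overlap for Rps27 and Rplp0.

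Rps27l, a paralog of the member Rps27, did change. Rps27l, a p53 target gene that encodes a protein closely related to Rps27, stood at 47.9, 48.5, 42.1 and 50.1 CPM in Control, at 108, 94.1, 91.8 and 114 CPM in MCT-vehicle and at 84.6, 97.6, 108 and 93.7 CPM in MCT-Fer-1. Both monocrotaline groups lay far above Control and overlapped each other. Rps27l rose with a fitted log2 change of 1.11 ± 0.09 (edgeR adjusted p = 3.24e-05) in MCT-vehicle and 1.03 ± 0.09 (edgeR adjusted p = 6.95e-05) in MCT-Fer-1, each against Control, and differed by -0.09 ± 0.09 (edgeR adjusted p = 0.741) between the 2. Reads may be shared between such close relatives, so the split between Rps27 and Rps27l is uncertain.

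Rps27 itself stood at 357, 354, 325 and 341 CPM in Control, 324, 287, 309 and 334 CPM in MCT-vehicle, and 306, 351, 294 and 324 CPM in MCT-Fer-1. These groups overlapped, and the log2 fold change was -0.13 ± 0.07 (edgeR adjusted p = 0.223) in MCT-vehicle. Of the 7 paralogs tested, 2 rose in MCT-vehicle (10.3% of all genes did): Rps27l and Rpl22l1. In MCT-Fer-1 against Control 1 rose, Rps27l (6.67% of all genes did). Rpl22l1, the paralog of Rpl22, went from 65.3 ± 3.97 CPM in Control to 78.8 ± 7.35 CPM in MCT-vehicle (SD, n = 4; log2 fold change 0.27 ± 0.08, edgeR adjusted p = 0.0308). It was 78.4 ± 5.63 CPM in MCT-Fer-1, where the edgeR adjusted p against Control was 0.0503, and its MCT-vehicle call was lost in 7 of 24 alternatives, among them leaving out Control 1, Control 3, Control 4, MCT-vehicle 1 or MCT-vehicle 4. Over the 24 its adjusted p by edgeR, DESeq2 or voom ran from 0.0128 to 0.0883. None of the 80 rows with a member symbol was Rpl22, so Rpl22 could not be analysed here.

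Fau, the fusion that yields the small-particle protein eS30, and Rack1, a scaffold on the small particle, were called in no comparison. In lists of genes around the ribosome, to be read against 10.3% of all genes called higher and 8.28% called lower in MCT-vehicle, 4 of 72 mitochondrial ribosomal proteins rose and 1 fell, as did 6 and 1 of 54 ribosome assembly factors, 1 and 1 of 18 RNA polymerase I genes, 1 and 2 of 21 genes in a list of TOP messenger RNAs other than ribosomal proteins, and 3 and 2 of 24 mTORC1 and TOP regulators. The median log2 fold changes of these lists were 0.11, 0.17, 0.08, 0.06 and 0.06 in that order (all genes 0.02). In the list of other TOP messenger RNAs the gene that rose was Vim, the intermediate filament vimentin, and those that fell were the translation factors Eif4a2 and Eif4b. In MCT-Fer-1 against MCT-vehicle none of these lists had a called gene by edgeR, and unadjusted p-values below 0.05 were reached by 28 of 54 assembly factors (12% of all genes), whose median log2 fold change was -0.23 (all genes -0.01). The same was reached by 11 of 72 mitochondrial ribosomal proteins, 5 of 18 polymerase I genes, 1 of 21 other TOP messenger RNAs and 6 of 24 regulators. Their medians were -0.09, -0.11, 0.03 and -0.05 in that order. Against Control, where 6.67% of all genes were called higher and 4.12% lower in MCT-Fer-1, it had 0 mitochondrial ribosomal proteins called by edgeR (6 at an unadjusted p below 0.05), 1 assembly factor lower, 2 polymerase I genes lower, Vim higher and Eif4a2 lower, and 2 regulators higher.

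In the same libraries other lists changed widely against Control. In MCT-vehicle, where 10.3% of all genes were called higher, 13 of 15 p53 target genes rose, Rps27l among them, with Mdm2 at a fitted log2 change of 0.68 ± 0.10 (edgeR adjusted p = 0.000827). So did 13 of 14 cell cycle genes and 11 of 14 macrophage markers. The medians of the 3 lists were 1.04, 1.20 and 1.39. In MCT-Fer-1 these counts were 12, 13 and 9, where 6.67% of all genes were called higher. Other lists fell in MCT-vehicle, where 8.28% of all genes were called lower. All 8 red cell rows were lower (median -1.03), as were 5 of 11 endothelial markers, with 1 higher (median -0.54). In MCT-Fer-1 against Control 5 red cell rows and 4 endothelial markers were lower, and 1 endothelial marker was higher (4.12% of all genes were lower). The part of these markers in the members' levels was not tested.

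In the 6 rows with a within-group SD above 0.5, libraries of 1 group lay far apart, so that a group mean describes few of its libraries. Rps9 (ENSRNOG00000058909), a small-particle protein involved in decoding accuracy, stood at 9.57, 149, 7.41 and 24.2 CPM in Control, at 102, 106, 107 and 90.4 CPM in MCT-vehicle, and at 73.9, 93.5, 82.5 and 80.9 CPM in MCT-Fer-1. The 8 monocrotaline libraries lay close together, whereas 3 of the Control libraries lay far below them and Control 2 above. The log2 fold change was 1.09 ± 0.77 (edgeR adjusted p = 0.371) in MCT-vehicle and 0.79 ± 0.77 (edgeR adjusted p = 0.584) in MCT-Fer-1. Without Control 2 these were 2.88 (edgeR adjusted p = 0.000621) and 2.59 (edgeR adjusted p = 0.00113), while over 23 alternatives the adjusted p ran up to 0.626 and 0.778, with 1 call each.

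The 2 rows of Rps27a, which encodes ubiquitin fused to a small-particle protein, ran opposite to each other. The row ENSRNOG00000034246 stood at 150, 53.8, 41.6 and 98.8 CPM in Control, 44.7, 52.5, 64.4 and 38.0 CPM in MCT-vehicle, and 96.0, 305.8, 139 and 40.1 CPM in MCT-Fer-1. The row ENSRNOG00000004426 stood at 467, 571, 533 and 457 CPM, at 536, 508, 515 and 611 CPM, and at 468, 401, 449 and 526 CPM in the same order. Where the first was high, in Control 1 and 4 and in MCT-Fer-1 1, 2 and 3, the second was low.

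Of all 15257 genes tested, the one whose log2 CPM ran most opposite to ENSRNOG00000034246 over the 12 libraries was the other Rps27a row (r = -0.91, a description over libraries that share groups). Summed, the rows gave 593 ± 33.2 CPM in Control, 592 ± 39.1 CPM in MCT-vehicle and 606 ± 67.7 CPM in MCT-Fer-1. The sum ranged over 556 to 707 CPM, far less in proportion than the first row did. For MCT-Fer-1 against MCT-vehicle the log2 fold changes were 1.54 ± 0.58 (edgeR adjusted p = 0.341) and -0.23 ± 0.10 (edgeR adjusted p = 0.380). Rows that share a symbol may share reads from near-identical copies, and which copy each read came from is uncertain.

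Rplp2 (ENSRNOG00000037607), the third stalk protein, stood at 4.12, 5.04, 1.51 and 2.72 CPM in Control, 2.73, 46.3, 3.28 and 4.83 CPM in MCT-vehicle, and 3.88, 2.12, 2.38 and 2.24 CPM in MCT-Fer-1. MCT-vehicle 2 alone was high, and the other 11 libraries overlapped. That library also held the most heart muscle transcripts (429 CPM), while Control 4, with 271 CPM of them, had 2.72 CPM of Rplp2. The part of these transcripts in the Rplp2 value was not tested. The log2 fold change was 2.10 ± 0.85 (edgeR adjusted p = 0.112) with MCT-vehicle 2 and 0.11 (edgeR adjusted p = 0.883) without it. For MCT-Fer-1 against MCT-vehicle it was -2.47 ± 0.86 (edgeR adjusted p = 0.305) with that library and -0.47 (edgeR adjusted p = 0.646) without it.

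Rpl30, a large-particle protein, stood at 110, 106, 175 and 100.3 CPM in Control, 96.3, 96.2, 20.3 and 177 CPM in MCT-vehicle, and 167, 205, 95.6 and 169 CPM in MCT-Fer-1. Higher and lower libraries occurred in every group, and MCT-vehicle 3 was far below all others. Rps6, the small-particle protein phosphorylated by S6 kinases, stood at 6.04 to 11.1 CPM in Control, at 5.52 to 8.85 CPM in 3 MCT-vehicle libraries and 31.9 CPM in MCT-vehicle 4, and at 5.64 to 11.9 CPM in MCT-Fer-1. Rpl9 was the sparsest member, with 2 to 76 counts and at least 10 counts in 9 libraries.

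**Figure D5:**
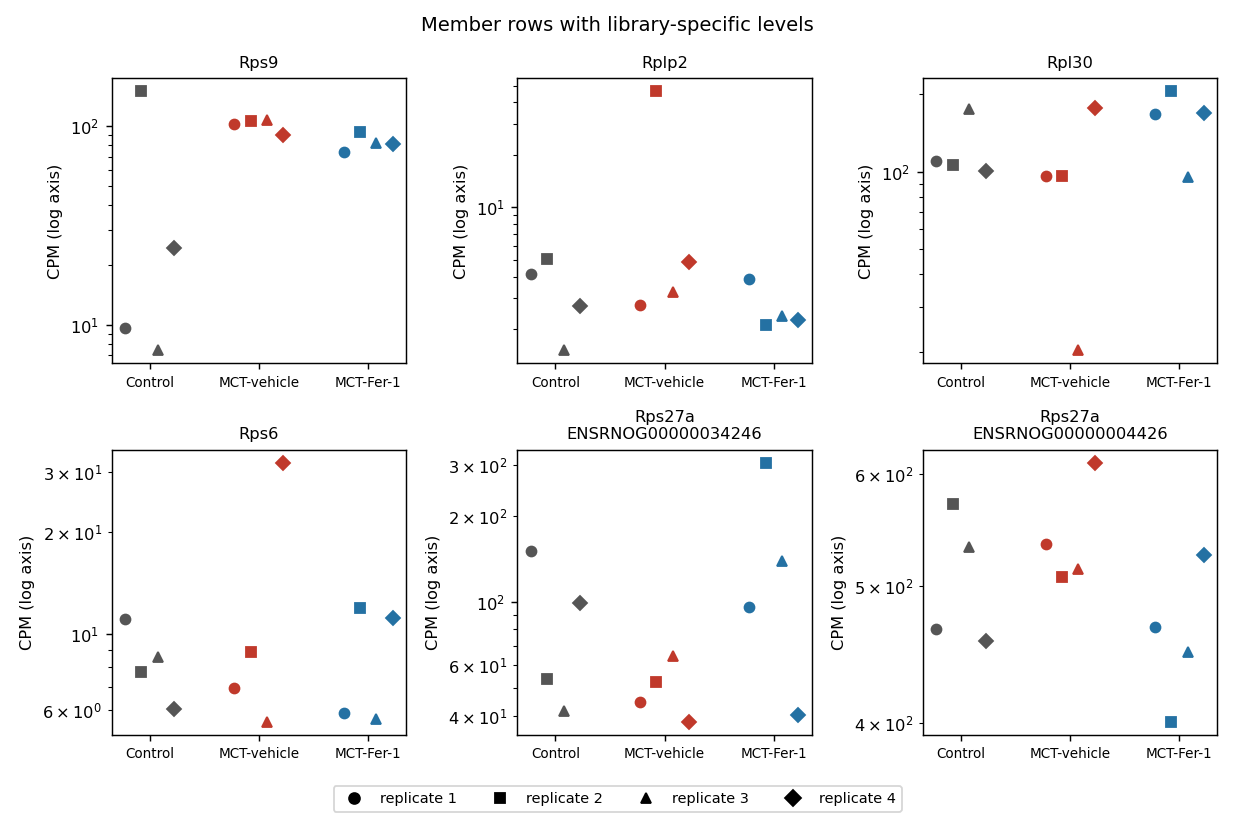
CPM on labelled log axes of Rps9, Rplp2, Rpl30, Rps6 and the 2 rows of Rps27a in each library, by group on the x axis, with marker shapes for the replicate. Rps9 is low in 3 of 4 Control libraries, Rplp2 is high in MCT-vehicle 2 alone, and the Rps27a rows run opposite to each other.

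Rpl17, a large-particle protein at the tunnel exit, stood at 306, 319, 313 and 426 CPM in Control, 314, 400, 428 and 362 CPM in MCT-vehicle, and 313, 496, 424 and 363 CPM in MCT-Fer-1. Low and high libraries occurred in each group, so the groups overlapped, and its log2 fold change in MCT-vehicle was 0.14 ± 0.15 (edgeR adjusted p = 0.566). Rpl12, at the base of the stalk, stood at 293 to 312 CPM in Control, 293 to 428 CPM in MCT-vehicle and 311 to 389 CPM in MCT-Fer-1 (MCT-vehicle log2 fold change 0.21 ± 0.12, edgeR adjusted p = 0.241). Rps18, whose printed run is among the longest shown, stood at 444 to 462 CPM in Control, 449 to 529 CPM in MCT-vehicle and 445 to 547 CPM in MCT-Fer-1. Rps28 stood at 130 to 158, 157 to 170 and 134 to 183 CPM, with an MCT-vehicle log2 change of 0.19 ± 0.09 (edgeR adjusted p = 0.168).

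The count rule left out 6 rows, and no row bore the symbol Rpl22, Rps13 or Rps26. Rpl39, Rpl8 and 1 further Rpl21 row (ENSRNOG00000049848) reached at most 4 counts in any library, Rpl38 at most 7, Rpl35a at most 9, and Rpl37 held 2 to 15 counts with 10 or more in 1 library. Just inside the rule lay Rpl9 and then Rps29, with 26 to 172 counts. In all, 8 members had a mean under 20 CPM, among them Rplp2, Rps6 and Rps29, whereas the highest mean was 1131 CPM (Rplp0). The rows left out and those with few counts name proteins of the cytosolic ribosome, some of which have paralogs. Rpl36a had a mean of 11.3 CPM, and its paralog Rpl36al averaged 173 to 179 CPM by group. A row's level is that of the reads assigned to it and need not be that of the gene.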

How the data were processed

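The authors deposited raw read counts per gene for 12 whole-lung libraries, per the file headers, with their group means, which equalled the means of the libraries and were not used. A university core facility made the libraries, per the labels. Not given in the sources used here: aligner, counter, strand setting and build. Copies, overlapping and antisense genes may therefore share reads. Rows were kept by edgeR's filterByExpr (15257 of 32883; all 74 members), scaled by TMM and fitted with 1 coefficient per group by the robust quasi-likelihood method, with Benjamini-Hochberg adjustment over all genes (called below 0.05). The standard error is the log2 fold change divided by the square root of F. Intervals cover 95%. Tests were tried on simulated counts. Tools were edgeR 4.0.16, DESeq2 1.42.0 and limma 3.58.1 under R 4.3.3. No 2 libraries agreed within sampling noise.

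The members and lists were chosen with earlier results of these data known. Genes were named from the members with the smallest p-values per comparison, the tested paralogs and a fixed set. The set was Rplp0, Rplp1, Rplp2, Rpsa, Rpl3, Rpl5, Rpl11, Rps6, Rps19, Rps27 and Rpl22. Not every gene so chosen has its values given: Rpl29, Rpl37a and the paralogs Rpl3l, Rpl7l1, Rpl10l and Rps4y2 are among those left out. Rpl7, Rpl9, Rpl12, Rpl17, Rpl30, Rps9, Rps18, Rps21, Rps29 and the second Rpl7a row were chosen once their values were known, as were the genes in the closing observations. Alternatives were other size factors, other filters, DESeq2, voom with quality weights, only the groups compared, a replicate block, summed rows of 1 symbol and leaving out libraries. RefSeq promoters (GRCr8) were matched by symbol. snoRNA host genes were not analysed here.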

Additional observations from a re-analysis of the deposited data

Results flagged for a closer look

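In each group of 4 libraries, the highest or lowest value was singled out when its gap to the nearest other value was a larger part of the group's range than Dixon's critical value at the 95% level allows. This was looked at for 31 genes and the members' sum, 96 groups of values in all. Chance singles out about 1 in 20 groups of genes chosen without regard to their values, but some of these genes, Rps9, Rpl30, Rpl17 and Rpl7 among them, were chosen once their values were known, so that rate does not apply here. There were 9 such values. In Control they were Rps9 in Control 2 (149 CPM), Rpl30 in Control 3 (175 CPM) and Rpl17 in Control 4 (426 CPM). In MCT-vehicle they were Rplp2 in MCT-vehicle 2 (46.3 CPM), and Rpsa (1106 CPM) and Rps6 (31.9 CPM) in MCT-vehicle 4. In MCT-Fer-1 they were Rplp2 in MCT-Fer-1 1 (3.88 CPM), and Rpl5 (950 CPM) and Rpl7 (1002 CPM) in MCT-Fer-1 2. All 9 were the highest value of their group.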

How the results depend on the processing

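In MCT-Fer-1 against MCT-vehicle no member was called under any of 25 alternatives. In MCT-vehicle against Control none was called under 24 of 25, and 1 (Rps9) was called without Control 2, so leaving out 1 library gave 0 to 1 calls. In MCT-Fer-1 against Control none was called under 19 of 25. DESeq2 called 1 (Rpl36), voom 2 (Rpl36 and Rpl7a) and the replicate block 1 (Rpl36), and leaving out 1 library gave 0 to 1 calls: Rps9 without Control 2, Rpl36 without MCT-vehicle 2 and Rps2 without MCT-Fer-1 1. The causes were not tested. Replicate numbers do not pair the samples: deviations of same-numbered libraries correlated between -0.06 and 0.10, and 4 of 12 libraries were most like their own number. The block therefore appears only here. The members' median log2 fold change stayed between -0.03 and 0.03, -0.04 and 0.05, and -0.03 and 0.07 in MCT-vehicle against Control, MCT-Fer-1 against MCT-vehicle, and MCT-Fer-1 against Control. Without MCT-Fer-1 2 the last 2 medians were -0.04 and -0.03. Of 596 values of single genes under alternatives, 581 kept direction and side of the threshold, 8 gained a call, 7 lost one (all Rpl22l1) and 0 reversed. Leaving out MCT-vehicle 2 and Control 4 together called no member. Depth limits rows such as Rpl9, with 2 counts in 1 library, and the spread between libraries limits the 6 variable rows.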

Other observations

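All 3 genes given here were picked with their values known. Pnpla2 and AABR07053166.1 were picked by how alike or opposite to a member they ran over the 12 libraries, among 15257 genes. Tsen34 was picked by its place beside Rps9. The gene running most opposite to Rps9 was Pnpla2, a triglyceride lipase, at 19.6, 1.22, 22.8 and 10.7 CPM in Control, 0.893 to 1.86 CPM in MCT-vehicle and 1.13 to 3.57 CPM in MCT-Fer-1. It was high in the 3 Control libraries where Rps9 was low, and low in Control 2. The gene most like Rpl17 was AABR07053166.1, at 2.69, 3.49, 3.49 and 11.1 CPM in Control, 3.55, 10.1, 10.4 and 3.15 CPM in MCT-vehicle, and 3.45, 14.1, 10.7 and 4.22 CPM in MCT-Fer-1. Tsen34, the next gene after Rps9 in RefSeq order, did not share its pattern, with 1.65 to 3.32 CPM in Control, 5.74 to 11.1 CPM in MCT-vehicle and 1.12 to 2.74 CPM in MCT-Fer-1.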
